A study of Schizosaccharomyces japonicus with 6 samples.

Results

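This experiment set *Schizosaccharomyces japonicus* cells lacking *pab2* (*pab2*Δ) against WT cells in vegetative growth, and asked which transcripts change when this nuclear RNA-binding protein is missing. It holds 4 of the 6 libraries of the study, 2 of *pab2*Δ and 2 of WT. The other 2 come from *clr4-1*, a strain with a heat-sensitive form of the enzyme that methylates histone H3 on Lys9. They enter here as side by side values, in the shared estimate of spread and in direct tests against *pab2*Δ. They also serve to rank genes by level. The genes described are the 4874 of 5272 in the deposited table with a mean of at least 1 FPKM over the 4 *pab2*Δ and WT libraries. FPKM is the number of sequenced fragments of a transcript, scaled to its length in kilobases and to the size of the library. All strains were grown in the rich medium YES at 30°C without treatment and harvested in mid log phase, and total RNA was sequenced with a strand-specific kit. The WT strain is NIG5572, a heterothallic *h-* strain that carries the D3 and domK alleles of the study's strain background. The strain list of the study holds a *pab2*Δ::natMX6 strain of the same background, but the labels do not say which *pab2*Δ isolate was sequenced. The design text calls the 2 samples of a strain biological replicates. Each *pab2*Δ library was matched to the WT library that, as divisor, returns the deposited ratio, which was true of 4928 of 4928 genes with WT above 0 in replicate 1 and of 4937 of 4937 in replicate 2.

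Pab2 is the fission yeast counterpart of mammalian PABPN1. It binds the poly(A) tails of RNA in the nucleus and, in *Schizosaccharomyces pombe*, it works with the zinc finger protein Red1, the helicase Mtl1 and the nuclear exosome to pass selected RNAs to decay. The best known of these RNAs are meiotic mRNAs that are transcribed by chance in mitotic cells, recognised by the YTH protein Mmi1 and removed before they can be translated. Loss of Pab2 in that yeast lets such mRNAs accumulate, and it also alters the stability of some transcripts with inefficient splicing or with unusual 3' ends. The RNA measured here is the steady state level, so synthesis and decay cannot be told apart. In bulk RNA, a change in the share of cells that express a gene and a change in RNA per cell cannot be told apart either.

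The deletion was visible in the data. *pab2* (*SJAG_04601*) had 145 and 142 FPKM in WT and was listed at 0 in *pab2*Δ, in both libraries, while *clr4-1* had 161 and 174 FPKM. The genes on either side of the locus did not vanish with it. *pub3*, which encodes a HECT-type ubiquitin ligase, had 22.6 and 22.2 FPKM in WT against 29.4 and 29.2 FPKM in *pab2*Δ, and *pac3*, a sequence orphan on the other side, had 3.34 and 4.35 against 2.87 and 3.07 FPKM. The next genes out, *rix7* and *coa1*, had log2 fold changes of 0.00 and -0.34 as deposited. As deposited, the actin gene *act1*, a common reference, had 371 and 380 FPKM in WT and 368 and 376 FPKM in *pab2*Δ (-0.01 ± 0.024 SE in log2, limma adjusted p = 0.69), and it stood at -0.22 after the scaling described next.

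The libraries of a strain were close to each other. The median absolute difference between replicates was 0.051 in WT and 0.053 in *pab2*Δ on the log2(FPKM + 1) scale, and 31 and 44 of the 4874 genes differed by over 2-fold between them. The table gives no read counts, so library depth is unknown. The 2 strains did not have the same composition, which matters for every small change below. The 140 genes of the cytosolic ribosomal protein list held 66.1% and 65.4% of all FPKM in the WT libraries, 58.9% and 58.2% in the *pab2*Δ libraries, and 67.3% and 66.9% in *clr4-1*. The sum of FPKM over all genes was 1068001 and 1047611 in WT and 920550 and 910209 in *pab2*Δ. As deposited, the median gene had a log2 fold change of 0.20, and 68.4% of genes lay above 0. After TMM scaling, which assumes that most genes do not change, the median was -0.01. Changes are therefore given as deposited and read against a median of 0.20.

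Over all genes, limma called 2649 higher in *pab2*Δ (54.3% of those tested) and 973 lower (20%) at an adjusted p-value under 0.05. TMM scaling made these 1631 (33.5%) and 1695 (34.8%), so that 73.1% of called genes were higher as deposited and 49.0% after scaling. Most of these calls are small, and the genes that follow were counted by a stricter rule, which adds a ratio above 2 or below 0.5 in both paired replicates. By that rule 372 genes rose (7.63% of those tested) and 89 fell (1.83%), together 461 (9.46%). Scaling kept the lean toward higher genes here, with 301 up and 154 down. The 301 were all among the 372, and all 89 lower genes were among the 154. Of the higher genes named below, *ste6*, *adi1*, *pll10*, *SJAG_00020*, *mei4*, *hta1*, *SJAG_03765*, *ctt1* and *SJAG_05153* were not among the 301, so their calls rest on the values as deposited. Below, a gene is said to rise or fall where it passed the stricter rule or, when so stated, limma alone. Fold changes are on the log2(FPKM + 1) scale and understate the change of genes near 1 FPKM.

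The genes that rose were mostly weakly expressed in WT, while those that fell were not. The median WT level was 6.17 FPKM among the 372 higher genes, 68 of which were below 1 FPKM, and 94.9 FPKM among the 89 lower genes. A gene below 1 FPKM in WT passed the level filter only through a higher value in *pab2*Δ. Genes this low that did not rise were therefore not tested. With a filter at a mean of 5 FPKM, 290 genes rose and 79 fell. The higher genes reached a median of 21.9 FPKM in *pab2*Δ, at a median ratio of 3.59, and 62 of them had a mean ratio of at least 10. The lower genes went down to a median of 28.2 FPKM, at a median ratio of 0.392. All but 1 of the higher genes were protein-coding and the other, *cox9*, is not in the reference annotation. The lower genes were 80 protein-coding genes, 1 rRNA gene and 8 tRNA genes, and 6 of those tRNA genes carried values identical to one another (8.76 and 7.47 FPKM in WT, listed at 0 in *pab2*Δ). Reads of such copies cannot be assigned to 1 gene, so the tRNA calls are uncertain. They stay in counts over all 89 lower genes, but no tRNA gene is named below.

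**Figure D1:**
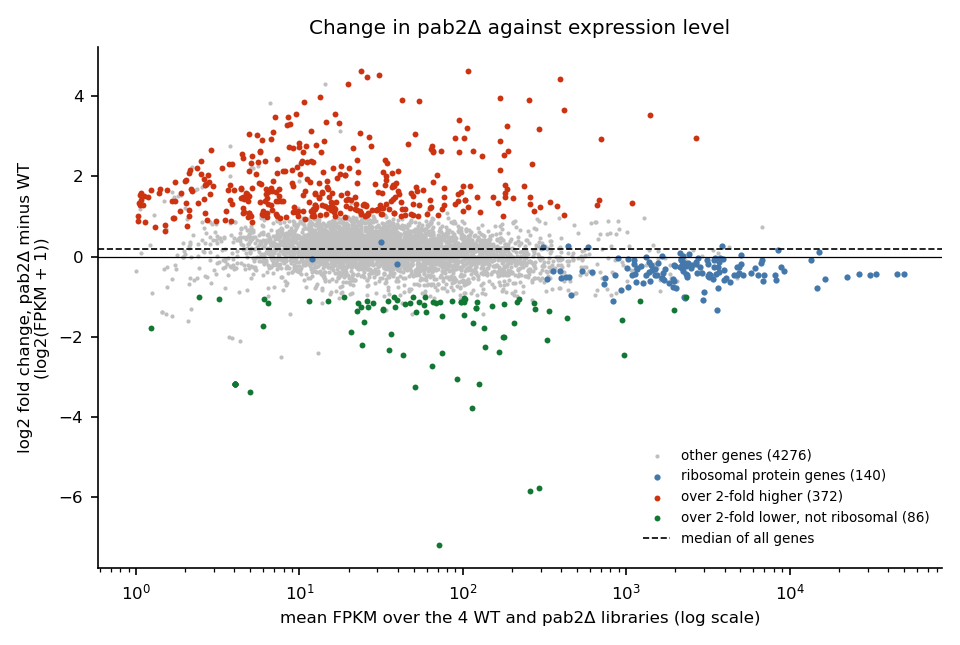
Each point is 1 of the 4874 genes, with its mean FPKM over the WT and *pab2*Δ libraries on a log axis and its log2 fold change on the y axis. Red points are the 372 genes over 2-fold higher, green points the lower genes outside the ribosomal list, blue points the 140 ribosomal protein genes, most of which lie below 0 at the right, and the dashed line is the median of all genes (0.20).

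The largest rises joined a septin, a spore wall protein and several genes of unknown role. *spn7*, a septin that *S. pombe* uses in sporulation, went from 1.25 and 0.67 FPKM to 47.2 and 46.7 FPKM (4.63 ± 0.14 SE in log2, limma adjusted p = 3.43e-06). *meu10*, which encodes a cell surface protein of the ascospore wall, went from 1.03 and 0.977 FPKM to a mean of 38.6 FPKM. *SJAG_00788*, described as a sequence orphan, went from 8.79 and 6.29 FPKM to 210 and 208 FPKM (4.64 ± 0.20 SE in log2). In all 3 genes both *pab2*Δ libraries were far above both WT libraries, and the *clr4-1* libraries stayed at or below 12.6 FPKM. The others among the 12 largest were *SJAG_02710* (a *Schizosaccharomyces* family with a conserved tryptophan), the short chain dehydrogenase gene *SJAG_01850*, *ddr48*, *meu32*, the potassium channel subunit gene *SJAG_03821*, *pdc202* (a predicted pyruvate decarboxylase), *hsp3105* (a ThiJ domain protein), the glutathione S-transferase gene *SJAG_00179* and the RTA-like gene *SJAG_00587*, with log2 fold changes from 4.53 down to 3.87.

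Genes of meiosis and sporulation rose in each of 5 lists. These lists of recombination, regulators, sporulation, *mug* (meiotically upregulated) and *meu* (meiotic expression upregulated) genes share members and hold 146 tested genes together, of which 52 rose (35.6%, against 7.63% of all genes) and 1 fell. Their median log2 fold change was 0.65, against 0.20 over all genes. The words and symbols of these lists were chosen with knowledge of earlier results of these data, so the share is a description and was not tested. Even so, most members stayed low in absolute terms, and the median of the 146 genes was 8.25 FPKM in WT and 18.1 FPKM in *pab2*Δ. The WT median of all tested protein-coding genes was 27.4 FPKM. The share of protein-coding genes that rose varied with level, at 37.5% from 1 to 5 FPKM in *clr4-1* and 7.46% from 5 to 20 FPKM. The share of the 146 was set against all genes and not against genes of like level.

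Among genes of meiotic recombination and chromosome pairing, 13 of 31 rose and 0 fell by the stricter rule. *hop1*, which encodes a protein of the linear elements that replace the synaptonemal complex in fission yeasts, went from 0.559 and 0.685 FPKM to 10.8 and 11.4 FPKM (2.91 ± 0.12 SE in log2, limma adjusted p = 1.13e-05). *mek1*, a meiotic kinase of the Chk2 family, went from 1.85 and 1.82 FPKM to 17.9 and 18.0 FPKM. *rec25* and *rec10*, also genes of linear element proteins, rose by 2.77 and 1.95 on the log2 scale, and *clr4-1* was also above WT in both, at 22.7 FPKM for *rec25* in both libraries and 10.2 and 10.6 FPKM for *rec10*. *meu6*, which lies next to *clr4*, rose from 5.25 and 5.15 FPKM to 49.1 and 47.3 FPKM. *sgo1* (shugoshin, the protector of centromeric cohesion) and *rec8* (the meiotic cohesin subunit) rose as well. *rec8* remained scarce, at 0.423 and 0.706 FPKM in WT and 3.75 and 3.99 FPKM in *pab2*Δ (1.64 in log2, limma adjusted p = 0.000239). Others of this list did not pass the stricter rule. *rec12*, the gene of the endonuclease that makes the double strand breaks, had 2.69 and 2.16 FPKM in WT and 3.33 and 3.18 FPKM in *pab2*Δ, and *rec7* and *mug20* had log2 fold changes of 0.01 as deposited and -0.14 after TMM scaling.

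Regulators of meiosis held large rises and 2 genes that were lower. Of the 23 tested, 11 rose and 0 fell by the stricter rule, 16 were higher and 2 lower by limma, and the list median was 1.04. *crp79*, which encodes a poly(A)-binding protein of meiotic cells, rose from 1.62 and 1.89 FPKM to 31.2 and 31.6 FPKM (3.56 ± 0.13 SE in log2, limma adjusted p = 5.65e-06). *spo5*, the gene of a meiotic RNA-binding protein, went from a mean of 1.52 FPKM to 16.0 and 15.4 FPKM. The meiotic cyclin gene *rem1* went from 0.14 and 0.111 FPKM to 4.48 and 5.23 FPKM, and the Cdc20/Fizzy family gene *fzr3* from a mean of 1.31 FPKM to 11.3 and 10.8 FPKM. *mei4*, the forkhead transcription factor of middle meiosis, rose less, from 3.42 and 2.69 FPKM to 7.13 and 7.07 FPKM (1.00 ± 0.12 SE in log2, limma adjusted p = 0.000498). Over all genes, both *pab2*Δ libraries were above both WT libraries in 61.8% and below them in 25.4%, so a lack of overlap alone sets none of these genes apart. *ste11*, the master transcription factor of sexual differentiation, had 4.03 and 3.38 FPKM in WT and 3.77 and 4.27 FPKM in *pab2*Δ, where the groups overlap. *mei2*, whose RNA-binding product switches *S. pombe* cells into meiosis, was lower by limma, at 26.1 and 26.8 FPKM in WT and 17.7 and 17.1 FPKM in *pab2*Δ (-0.58 ± 0.042 SE in log2, limma adjusted p = 8.24e-05). It was lower still in *clr4-1*, at 10.7 and 10.8 FPKM. The other lower gene was *atf21*, which encodes a transcription factor, at 94.0 and 86.3 FPKM in WT, 42.6 and 44.7 FPKM in *pab2*Δ and 25.1 and 27.3 FPKM in *clr4-1* (-1.03 ± 0.062 SE in log2, limma adjusted p = 3.83e-05), and it passed the stricter rule after TMM scaling.

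Sporulation genes gave 13 rises and 1 fall among 34. Besides *spn7* and *meu10*, *meu14* (a protein of the forespore membrane) rose from 2.29 and 2.14 FPKM to 19.3 and 18.2 FPKM, and *pil2* (a meiotic eisosome protein) from 16.5 and 18.9 FPKM to 114 FPKM in both libraries. Septins allow a comparison within 1 family, because *spn2*, *spn5*, *spn6* and *spn7* form a complex in *S. pombe* spores. *spn5* rose to 20.6 and 21.8 FPKM from a mean of 5.17 FPKM, whereas *spn6* (log2 fold change 0.80) and *spn2* (42.1 and 41.0 against 49.9 and 48.1 FPKM) passed limma alone, with *spn2* at a log2 fold change of 0.02 after TMM scaling. The fall was *cda1*, the chitin deacetylase gene, from 75.7 and 70.8 FPKM to 12.4 and 12.6 FPKM (-2.46 ± 0.050 SE in log2, limma adjusted p = 9.88e-07). *clr4-1* had nearly the same level of *cda1*, at 13.8 and 13.0 FPKM, and the difference between the mutants did not pass limma's test (-0.09 ± 0.050 SE in log2, adjusted p = 0.134). *meu* genes rose in 8 of 14 cases and *mug* genes in 15 of 57, among them *mug10* (log2 fold change 3.09), *mug4* (2.78) and *mug108* (2.68). Genes of mating and pheromone response, by contrast, gave a single rise among 20, in *ste6*, a guanine nucleotide exchange factor gene, and their median of 0.25 lay near that of all genes. *ste6* went from 3.68 and 3.44 FPKM to 8.17 and 8.61 FPKM. In the mating-type region, *SJAG_05153* (Mc-like) rose from 33.7 and 30.7 FPKM to 71.4 and 63.1 FPKM, *SJAG_01113* passed limma alone (0.57 in log2, limma adjusted p = 0.000375) and *SJAG_05154* did not (7.62 and 7.13 against 11.5 and 10.4 FPKM, adjusted p = 0.0511 from limma). The single transposon fragment gene named here, *SJAG_03765*, had WT levels of 1.23 and 0.491 FPKM, against 2.49 and 2.59 FPKM in *pab2*Δ and 48.4 and 41.5 FPKM in *clr4-1*.

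**Figure D2:**
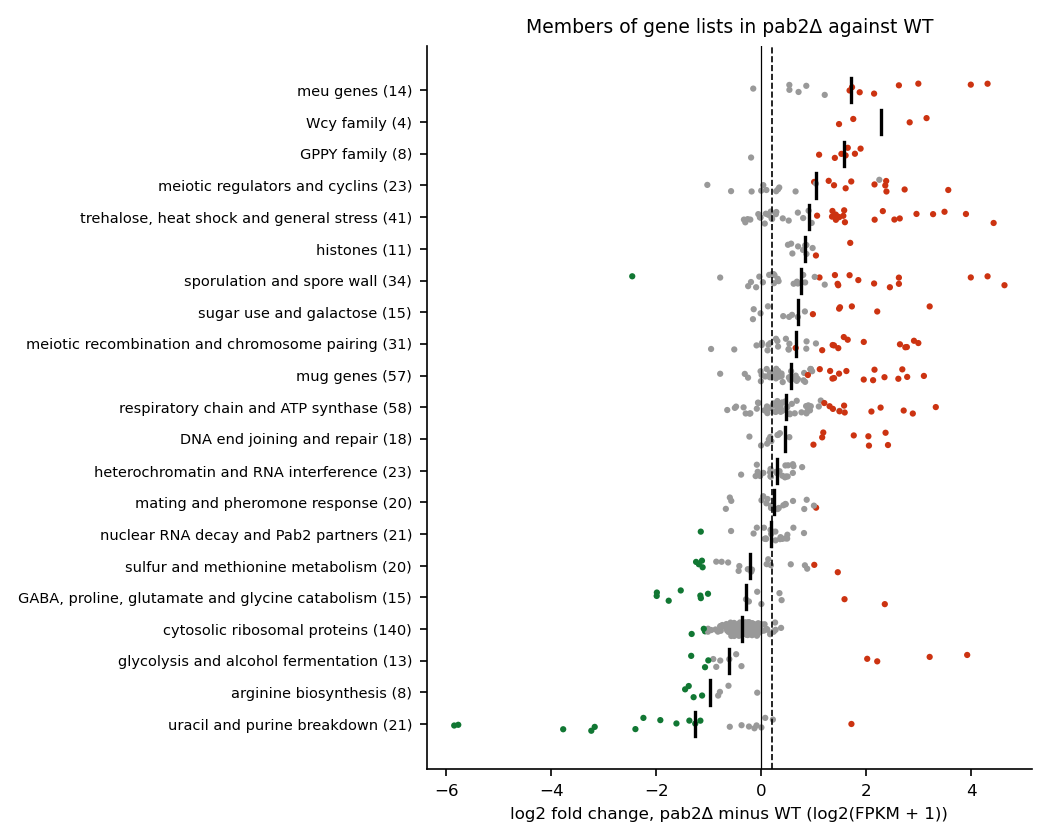
Each point is a gene's log2 fold change between *pab2*Δ and WT, in rows by gene list with the number of tested members in brackets (*pab2* itself is not drawn). Red genes were over 2-fold higher and green genes over 2-fold lower in both replicates, black bars mark list medians, and the dashed line at 0.20 is the median of all genes. Lists of meiosis and stress lie to its right and uracil and arginine genes to its left, with medians of -1.26 and -0.98.

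A second large set of rises came from stress and carbon source genes. Of 41 genes of trehalose metabolism, heat shock and general stress, 19 rose and 0 fell by the stricter rule, against 7.63% and 1.83% of all genes. Their median log2 fold change was 0.90, against 0.20 over all genes. *hsp9*, a small stress protein, showed the largest gain of all genes in absolute terms, from 592 and 633 FPKM to 4682 and 4810 FPKM (2.95 ± 0.044 SE in log2, limma adjusted p = 3.83e-07). *ddr48* went from 35.6 and 32.4 FPKM to 735 and 763 FPKM, and *rtc3* from 32.2 and 36.8 FPKM to 348 and 333 FPKM. In these genes *clr4-1* stayed near WT, with *hsp9* at 568 and 534 FPKM. The polyubiquitin gene *ubi4* rose from 61.8 and 61.1 FPKM to 280 and 275 FPKM. The catalase gene *ctt1* (log2 fold change 1.06), the trehalase gene *ntp1* (1.59) and the trehalose synthase homolog *tps3* (1.58) rose as well. The general chaperones did not follow. *hsp90* was at 508 and 514 FPKM in WT and 571 and 549 FPKM in *pab2*Δ, a change of 0.13 in log2 that turned to -0.08 after TMM scaling, and *bip1*, *pss1* and *mcp60* were lower by limma at -0.26, -0.31 and -0.33.

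Among genes of sugar use, several transporters and enzymes rose, and 3 abundant glycolysis genes fell. *ght6*, a hexose symporter gene, went from 20.8 and 19.2 FPKM to 191 and 194 FPKM (3.20 ± 0.049 SE in log2, limma adjusted p = 3.95e-07), and *ght7* from 5.19 and 4.93 FPKM to 27.3 and 26.6 FPKM. *inv1* (invertase) and *mel1* (alpha-galactosidase) rose by 1.48 and 1.72 on the log2 scale. *gal1* (galactokinase) went from 6.30 and 6.52 FPKM to 20.4 and 19.4 FPKM. In all, 6 of the 15 genes of sugar use rose, against 7.63% of all genes. The glycolysis and fermentation list went both ways, with 4 rises and 3 falls among 13 and 9 members lower by limma. Its rises were *ght6*, *ght7*, *adh8* and *pdc202*, which went from a mean of 30.7 FPKM to 475 and 482 FPKM. Its falls were *gpm1* (phosphoglycerate mutase), *tpi1* (triosephosphate isomerase) and *hxk1* (hexokinase). *gpm1* went from 2821 and 2778 FPKM to 1101 and 1116 FPKM (-1.34 ± 0.018 SE in log2, limma adjusted p = 2.95e-07), while *clr4-1* had 2670 and 2698 FPKM. The summed FPKM of the list went from 11283 and 11289 in WT to 6791 and 6971 in *pab2*Δ.

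Genes of the respiratory chain and ATP synthase, which *S. japonicus* is thought to use little in growth on glucose, gave 11 rises and 0 falls among the 58 tested of 66 in the table, with a median of 0.47. Of all genes 7.63% rose and 1.83% fell, and the median was 0.20. By limma 40 of the 58 were higher and 5 lower as deposited, and 26 and 9 after TMM scaling. The shares of all genes were 54.3% and 20% as deposited, and 33.5% and 34.8% after scaling. The 11 that rose were *qcr9*, *sdh8*, *qcr7*, *cox7*, *sdh3*, *coa3*, *cox9*, *qcr6*, *cox4*, *cyt1* and *ndi1*. The first of these were near the low end of the scale in WT, with uneven replicates. *qcr7*, a subunit of complex III, was at 6.46 and 3.65 FPKM in WT and 39.9 and 35.3 FPKM in *pab2*Δ, and *sdh8* at 1.56 and 4.02 against 26.2 and 24.7 FPKM. *qcr9*, the largest by fold change, had 0.794 and 4.33 FPKM in WT and 19.7 and 45.1 FPKM in *pab2*Δ, with a standard error of 0.70. *cox9*, a complex IV subunit gene, was better measured, at 46.3 and 46.7 FPKM in WT and a mean of 140 FPKM in *pab2*Δ. The large catalytic subunits of ATP synthase moved little, with *atp1* and *atp2* at log2 fold changes of 0.12 and 0.16, below the median of all genes, and stood at -0.09 and -0.05 after TMM scaling. The 8 members that were not tested lay under the level filter, as did all 37 genes of the mitochondrial genome in the table.

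All 11 histone genes were higher by limma, with and without TMM scaling, and their median log2 fold change was 0.83. Over all genes, 54.3% were higher by limma as deposited and 33.5% after scaling. Only *hta1* (H2A) and *cnp1*, the gene of the centromeric histone CENP-A, passed the stricter rule. *cnp1* went from 89.4 and 87.0 FPKM to 286 and 288 FPKM (1.69 ± 0.034 SE in log2, limma adjusted p = 9.61e-07), and *hhf1* (H4) from 852 and 873 FPKM to 1719 and 1674 FPKM. Among 22 genes under the G1/S factor MBF, 6 rose, including *cdt1* and *cdc18*, both of replication licensing, *cdt2*, *tos4*, *mrc1* and the cyclin gene *cig2*. *cdt1* went from 13.4 and 13.7 FPKM to 52.9 and 54.8 FPKM. The 1 fall was *spd1*, the gene of an inhibitor of ribonucleotide reductase that Cdt2 helps to degrade in *S. pombe*, from 161 and 182 FPKM to 63.4 and 77.3 FPKM (-1.28 ± 0.10 SE in log2). Of the 22, 16 were higher and 3 lower by limma as deposited, and 11 and 5 after TMM scaling. The shares of all genes were 54.3% and 20% as deposited, and 33.5% and 34.8% after scaling. Of 18 genes of end joining and repair, 8 rose and 0 fell by the stricter rule, while 11 were higher by limma, a share near that of all genes. The checkpoint clamp gene *rad9* went from 26.2 and 26.5 FPKM to 113 and 111 FPKM, and the helicase gene *chl1* from 6.32 and 6.54 FPKM to 37.7 and 39.3 FPKM, while *clr4-1* was also above WT in both, at 43.5 and 41.9 FPKM for *rad9* and 13.8 and 13.4 FPKM for *chl1*.

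**Figure D3:**
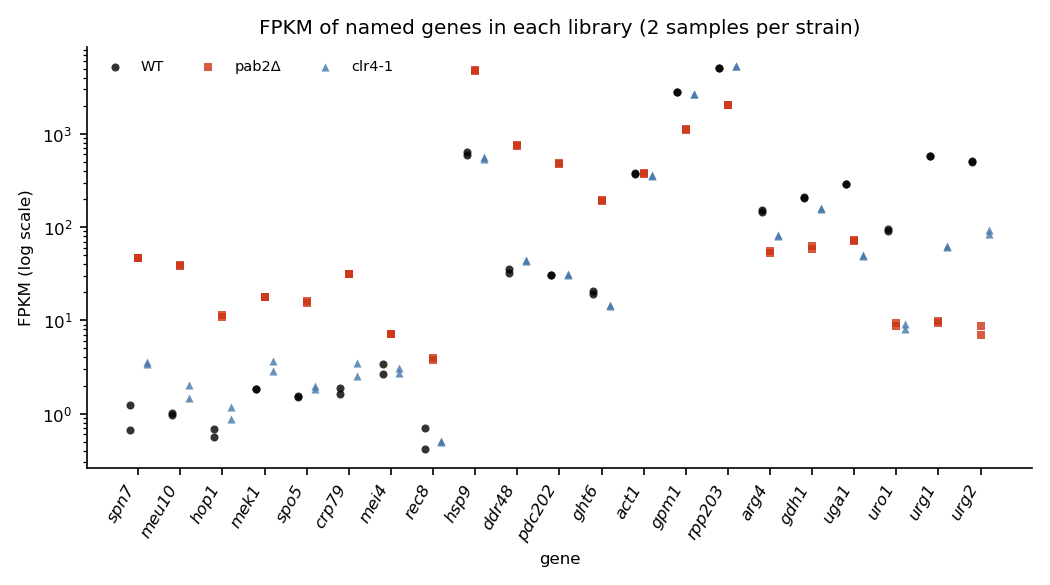
FPKM of 21 named genes in every library on a log axis, with circles for WT, squares for *pab2*Δ and triangles for *clr4-1*, 2 libraries each. For the meiotic, stress and sugar genes on the left the *pab2*Δ squares stand above both other strains, *act1* is nearly level, and for *uga1*, *uro1*, *urg1* and *urg2* on the right both mutants lie below WT.

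The deepest falls were in genes that break down uracil and purines, a source of nitrogen. Of 21 such genes, 12 fell (against 1.83% of all genes) and 1, the urea transporter gene *SJAG_02125*, rose, and the median log2 fold change was -1.26. *urg1*, a predicted GTP cyclohydrolase II gene of the uracil catabolic cluster, dropped from 578 and 576 FPKM to 9.90 and 9.28 FPKM (-5.77 ± 0.040 SE in log2, limma adjusted p = 5.21e-08). *urg2*, a uracil phosphoribosyltransferase gene, dropped from 504 and 510 FPKM to 8.77 and 6.96 FPKM. *urg3* went from 210 and 213 FPKM to 14.4 and 14.7 FPKM. The *clr4-1* libraries lay between, at 63.4 and 61.2 FPKM for *urg1* and 83.9 and 94.2 FPKM for *urg2*, and *pab2*Δ was lower than *clr4-1* in both (direct log2 difference -2.58 and -3.35, adjusted p = 5.19e-07 and 3.46e-06 from limma). *uro1*, the uricase gene, was low in both mutants. It stood at 91.4 and 95.9 FPKM in WT, 8.70 and 9.37 FPKM in *pab2*Δ and 8.14 and 9.15 FPKM in *clr4-1* (direct *uro1* difference 0.06 ± 0.068 SE in log2, limma adjusted p = 0.454). Genes of purine salvage were mixed. *apt1* fell from 368 and 383 FPKM to 167 and 168 FPKM and was not lower in *clr4-1* (444 and 431 FPKM), and *hpt1* had a log2 fold change of 0.00, which was -0.21 after TMM scaling. The nucleoside hydrolase gene *SJAG_04927*, which belongs to no list, also fell in *pab2*Δ but little in *clr4-1*, at 112 and 113 FPKM in WT, 16.7 and 15.8 FPKM in *pab2*Δ and 106 and 100 FPKM in *clr4-1*. In the direct test, *pab2*Δ was above *clr4-1* at 61.7% of all genes and below it at 16.9%. Both mutants were set against the same WT libraries, so their values are given side by side and no overlap is counted.

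Amino acid genes fell to a smaller degree. In arginine biosynthesis, 4 of 8 genes fell and 7 were lower by limma, with a median of -0.98. Both *pab2*Δ libraries were below both WT libraries in all 8 genes, against 25.4% of all genes. *arg4*, the carbamoyl-phosphate synthase gene, went from 145 and 152 FPKM to 55.1 and 52.4 FPKM (-1.45 ± 0.039 SE in log2, limma adjusted p = 2.23e-06), and *arg3*, the next enzyme, from 88.0 and 85.3 FPKM to 31.6 and 33.7 FPKM. *arg3* was lower yet in *clr4-1*, at 13.7 and 13.5 FPKM. In the list of GABA, proline, glutamate and glycine use, 7 of 15 fell and 2 rose. *gdh1* (glutamate dehydrogenase) and *gln1* (glutamine synthetase), which bring ammonium into amino acids, fell from 203 and 212 FPKM to 58.1 and 62.8 FPKM and from 644 and 651 FPKM to 220 and 226 FPKM. In *clr4-1* they were higher than in *pab2*Δ, at 159 and 157 FPKM for *gdh1* and 428 and 435 FPKM for *gln1*. The GABA transaminase gene *uga1* went from 287 FPKM in both WT libraries to a mean of 71.4 FPKM. The succinate-semialdehyde dehydrogenase genes went apart, since *SJAG_03293* fell from 281 FPKM in both libraries to 69.9 and 70.1 FPKM and *SJAG_00674* rose from 2.75 and 3.22 FPKM to 19.2 and 19.4 FPKM. *put1*, the proline dehydrogenase gene, rose from 0.0397 and 0.0377 FPKM to 2.26 and 1.97 FPKM and remained scarce. In sulfur and methionine metabolism 4 of 20 fell, namely *met10*, *sua1*, *met14* (all of sulfate reduction) and *mri1* (methionine salvage), and 2 rose, *adi1* (also of methionine salvage) and the sulfate transporter gene *SJAG_01941*. Over these 4 nitrogen and sulfur lists, 27 of 64 genes fell (42.2%) and 5 rose (7.81%), against 1.83% and 7.63% of all genes. After TMM scaling 30 fell. These lists too were chosen with earlier results of these data known, so the shares are a description and were not tested. The 64 genes were well expressed in WT, with a median of 86.0 FPKM that became 45.9 FPKM in *pab2*Δ.

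Other falls included transport and translation genes. *zrt1*, a zinc transporter gene, fell from 528 FPKM in both WT libraries to 126 and 124 FPKM, and another zinc transporter gene, *zip3*, rose from 19.5 and 20.8 FPKM to 61.7 and 61.3 FPKM. *yak3*, an aldose reductase gene, fell from 1636 and 1632 FPKM to 299 and 298 FPKM. *sce3*, a predicted translation initiation factor gene next to *uga1*, fell from 277 and 282 FPKM to 52.3 and 54.2 FPKM, and *tif512*, 1 of the eIF5A genes, from 1379 and 1425 FPKM to 469 and 474 FPKM. Neither was low in *clr4-1* (273 and 277 FPKM for *sce3*, 1646 and 1661 FPKM for *tif512*). *nmt1*, the thiamine synthesis gene, rose from 0.991 and 0.588 FPKM to 15.9 and 17.6 FPKM.

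Ribosomal protein mRNAs carried most of the loss in FPKM. Of the 140 genes on this list, 120 were lower and 9 higher by limma, with a median log2 fold change of -0.37, and after TMM scaling 133 were lower and 1 higher. The list took in *rpp1*, *rlp7* and *rlp24* by symbol or description, although these names belong to RNA processing and assembly factors in *S. pombe*, and all 3 were among the 9 higher genes. The change was shallow in nearly all members, and only *rpp203*, *rps22b* and *rpl23a* fell by the stricter rule. *rpp203*, an acidic P2 protein gene, went from 5122 and 5095 FPKM to 2023 and 2049 FPKM (-1.33 ± 0.015 SE in log2, limma adjusted p = 2.21e-07). Genes for near-identical proteins did not move together. *rps2802* was lower by limma (-0.77 in log2), from 18256 and 18975 FPKM to 11227 and 10548 FPKM, and its paralog *rps2801* had 8139 and 7911 FPKM in WT and 9100 and 8910 FPKM in *pab2*Δ, a change of 0.17 in log2 that was -0.047 after TMM scaling. How reads shared by such copies were counted is not given in the sources used here, so the values of paralogs are uncertain. The 10 largest losses of FPKM were all ribosomal protein genes and summed to -84125 FPKM. Over the whole list the difference in mean FPKM between strains was -159649, and over the 4734 other genes it was +17218. Among the 138 of them with a length in the reference, the median log2 fold change was -0.45 in the 46 shortest, -0.22 in the 46 of middle length and -0.36 in the 46 longest.

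Growth machinery outside the ribosome itself gave few calls by the stricter rule. None of the 121 ribosome biogenesis genes passed the stricter rule, against 9.46% of all genes. Their median of 0.20 was that of all genes. By limma 82 of them were higher and 18 lower as deposited, and 41 and 38 after TMM scaling. Limma called 54.3% of all genes higher and 20% lower as deposited, and 33.5% and 34.8% after scaling, so the balance moved with the scaling there too. The 44 proteasome genes had a median of 0.10, with 22 higher and 10 lower as deposited and 6 and 24 after scaling, so their direction turned with the scaling. The same turn was seen in mitochondrial ribosomal proteins, at 30 higher and 7 lower as deposited and 11 and 20 after scaling. Translation factors had a median of -0.03, below that of all genes, and leaned lower after scaling. By limma 16 of the 41 were higher and 19 lower as deposited, and 2 and 30 after TMM scaling. By the stricter rule 0 of them rose and 1 fell.

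The partners of Pab2 in nuclear RNA decay mostly changed by less than 2-fold. Of 21 genes in this list, 13 were higher and 4 lower by limma, and 8 and 6 after TMM scaling. The shares of all genes were 54.3% and 20% as deposited, and 33.5% and 34.8% after scaling. The list median of 0.19 was also near that of all genes. By the stricter rule 0 of the 21 rose and 2 fell, against 7.63% and 1.83% of all genes. Of the 2, 1 was *pab2* itself. The other was *erh1*, whose product binds Mmi1 in *S. pombe* in the removal of meiotic mRNAs. *erh1* went from 92.0 and 97.7 FPKM to 39.7 and 44.5 FPKM (-1.15 ± 0.063 SE in log2, limma adjusted p = 2.68e-05), and *clr4-1* had 80.3 and 77.3 FPKM. *mmi1* was higher by limma, at 46.1 and 43.2 FPKM in WT and 78.7 and 79.4 FPKM in *pab2*Δ (0.81 ± 0.052 SE in log2, limma adjusted p = 4.86e-05). *red1* had 19.5 and 19.1 FPKM in WT and 27.2 and 28.0 FPKM in *pab2*Δ, and the exosome nuclease genes *rrp6* and *dis3* had log2 fold changes of 0.36 and 0.49. Smaller values depended on the scaling. *red5*, *cid14* and *dri1* were higher by limma at 0.19, 0.17 and 0.09 as deposited and stood at -0.024, -0.034 and -0.12 after TMM scaling. The poly(A) polymerase gene *pla1* (34.2 and 35.8 against 36.1 and 37.2 FPKM, log2 fold change 0.06 as deposited and -0.14 after TMM scaling) and the cleavage factor gene *ppn1* (37.8 and 38.3 against 48.6 and 50.1 FPKM) were not called by the stricter rule. By limma *ppn1* was higher both as deposited and after TMM scaling. The 23 genes of heterochromatin and RNA interference were not called by the stricter rule either. By limma 15 of the 23 were higher and 2 lower as deposited, and 9 and 4 after TMM scaling. There *epe1*, the gene of a JmjC protein that opposes heterochromatin in *S. pombe*, was the highest at 0.78, and *clr4* had 9.34 and 9.48 FPKM in WT and 9.70 and 7.99 FPKM in *pab2*Δ (-0.09 in log2, limma adjusted p = 0.508).

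The share of genes that rose in *pab2*Δ was described by level and by the presence of an *S. pombe* ortholog. To rank genes without using the WT or *pab2*Δ values, protein-coding genes were placed by their mean in *clr4-1*. Shares were taken over all protein-coding genes of the table, since a gene low in WT could pass the level filter through its *pab2*Δ value, and genes that were not tested count as not risen. The share that rose was 37.5% of 304 genes at 1 to 5 FPKM, 7.46% of 1581 genes at 5 to 20 FPKM, 4.19% of 1385 genes at 20 to 50 FPKM, 2.87% of 1047 genes at 50 to 200 FPKM and 1.37% of 439 genes from 200 FPKM. Below 1 FPKM it was 40.5% of 111 genes, where only 61 were tested. The share of tested genes that fell went the other way, from 1.02% at 1 to 5 FPKM to 3.87% from 200 FPKM. Of the 666 genes with no *S. pombe* ortholog listed, 147 rose (22.1%), and of the 4201 with one, 224 rose (5.33%). From 1 FPKM in *clr4-1* the shares were 19.1% of 570 and 5.18% of 4186. Genes without an ortholog were also less expressed, with median WT levels of 14.7 FPKM among those tested, against 29.2 FPKM. Within a level the share was higher without an ortholog in 4 of the 5 classes from 1 FPKM. At 1 to 5 FPKM 48 of 99 genes without an ortholog rose (48.5%), against 66 of 205 with one (32.2%), and at 50 to 200 FPKM it was 15 of 99 (15.2%) against 15 of 948 (1.58%). From 200 FPKM 0 of 39 rose, against 6 of 400. These differences between classes were not tested.

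**Figure D4:**
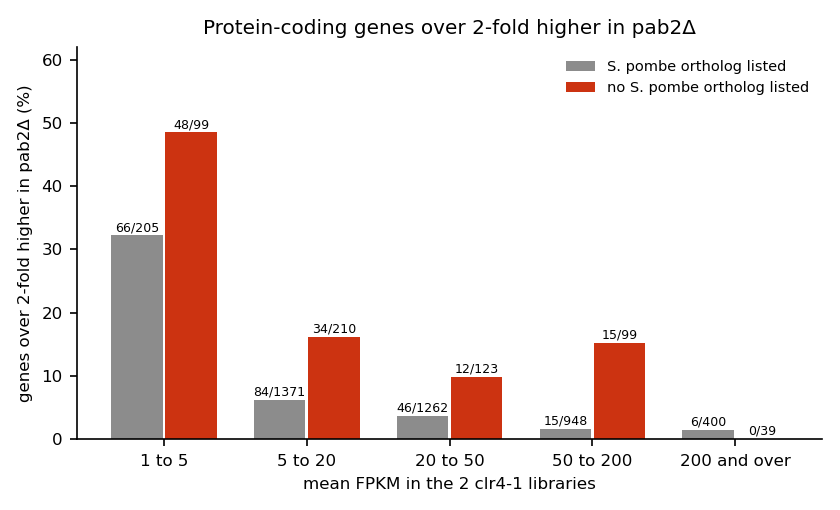
Bars give the percentage of all protein-coding genes of the table that were over 2-fold higher in *pab2*Δ, by mean FPKM in the 2 *clr4-1* libraries, for genes with an *S. pombe* ortholog (grey) and without one (red), with the counts above each bar. The shares of the first class are the highest in both, from 48.5% and 32.2% in the lowest class, and red exceeds grey in all classes but the last.

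Small gene families held further rises, and the Wcy and GPPY families among them are described as specific to *S. japonicus*. All 4 genes of the Wcy family rose, among them *wcy4* from 1.39 and 1.80 FPKM to 23.1 and 20.7 FPKM (3.14 ± 0.11 SE in log2, limma adjusted p = 6.02e-06) and *wcy2* from 16.4 FPKM in both libraries to 57.8 and 57.3 FPKM. Of the 8 tested members of the GPPY family (15 in the table), 7 rose. The other, *gpp74*, was lower by limma at -0.20, but it entered the list by its symbol and is annotated as a Golgi phosphoprotein. The PLLLP family, named for a sequence motif, went both ways with a median of 0.21, near that of all genes. There 4 of the 10 tested members (18 in the table) rose and *pll17* fell, from 34.9 and 36.7 FPKM to 15.3 and 17.0 FPKM. A member that entered the test only through a raised value in *pab2*Δ had to differ, so the untested members cannot be read as unchanged. Reads shared between members of a family were not resolved here.

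Many genes that changed in the same direction lay next to each other. In the gene order of the RefSeq annotation, whose contigs are not named, 121 of 371 higher genes (32.6%) had another higher gene as a direct neighbour, and 11.7% of the other genes did. Among lower genes it was 25 of 89 (28.1%), against 2.87%, and the 89 include the 8 tRNA genes with uncertain calls. There were 50 runs of at least 2 higher genes and 11 of lower ones, and the longest held 5 higher genes, once as *pll10*, *gpp4*, *SJAG_00023*, *SJAG_00021* and *SJAG_00020*, and once as *SJAG_02957* to *SJAG_02961*. The second run lies within the densest stretch of the genome, chosen after the calls were known. From *SJAG_02946* to *SJAG_02967*, 13 of 20 consecutive genes rose, 18 of the 19 tested were higher by limma, and 0 were lower. Over all genes, 7.63% rose and 54.3% were higher by limma. The stretch begins with amino acid transporter genes, goes on through the melibiose and galactose genes *mel1*, *gal1*, *SJAG_02951* and *gal7* and the amino acid permease gene *dip5*, and ends in sugar transport and oxidoreductase genes. The WT levels of the stretch ranged widely, with 5 of the 19 below 1 FPKM and 5 at 10 FPKM or more. The 5 below 1 FPKM passed the level filter only through higher values in *pab2*Δ, so they could be tested only as higher genes. *SJAG_02961*, an epimerase gene, went from 0.276 and 0.378 FPKM to 14.3 and 13.3 FPKM, and *SJAG_02960* from 0.385 and 0.427 FPKM to a mean of 10.6 FPKM. *gal7*, in the midst of them, had 18.4 and 17.9 FPKM in WT and 25.2 and 23.8 FPKM in *pab2*Δ and passed limma alone.

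The lower genes had clusters of their own. *urg1*, *urg3* and *urg2* are adjacent, and *uck2* (227 and 228 FPKM in WT, 23.3 and 25.4 FPKM in *pab2*Δ) and the uracil permease gene *SJAG_04714* (58.0 and 58.3 against 14.7 and 14.5 FPKM) lie just beyond 1 further gene, *toe1*. *toe1* itself had 15.2 and 14.1 FPKM in WT and a mean of 13.9 FPKM in *pab2*Δ (-0.07 in log2, limma adjusted p = 0.424), within a cluster whose other genes fell. The longest run of lower genes was *SJAG_04300* (predicted transthyretin), *uro1*, *SJAG_04298* (hydantoin racemase family) and *xan1*. It was flanked on one side by *inv1*, which rose from 63.2 and 65.3 FPKM to 178 and 184 FPKM. *SJAG_00036*, also of the hydantoin racemase family, and the allantoicase gene *dal2* formed a further pair, with *dal2* at 224 and 226 FPKM in WT and 47.0 and 46.5 FPKM in *pab2*Δ.

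**Figure D5:**
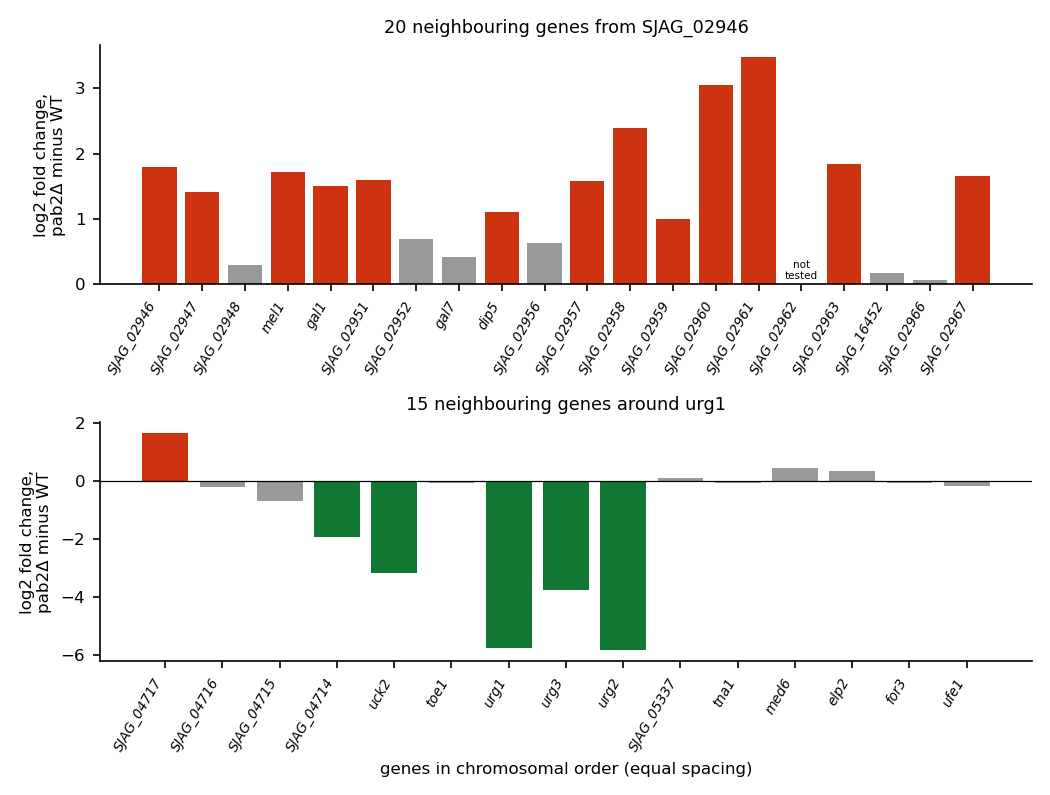
The y axis gives the log2 fold change between *pab2*Δ and WT for 20 consecutive genes from *SJAG_02946* (top) and for 15 genes around *urg1* (bottom), in chromosomal order at equal spacing. Red bars rose and green bars fell by over 2-fold in both replicates and grey bars did not. In the top row 13 genes rose, and in the bottom row 5 fell with *toe1* between them at -0.07.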

How the data were processed

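The authors deposited 1 table of FPKM values for 6 libraries, with ratio columns that equal the quotient of mutant and WT FPKM. No header names the unit, which was inferred from the values and the tools used. Their processing notes name FastQC 0.11.6, STAR 2.5.3a and StringTie 1.3.1c, and the genome build is not given in the sources used here. The ratios served only to pair libraries and all fold changes were recomputed. FPKM carries no read counts, so counting error could not be computed.

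The tests ran on genes that averaged 1 FPKM or more over the 4 libraries, as log2(FPKM + 1) with limma 3.58.1 in R 4.3.3, in 1 model of 3 strains over 6 libraries with an intensity trend and Benjamini-Hochberg adjustment over all 4874 genes, at a threshold of 0.05. The stricter rule added a ratio above 2 or below 0.5 in both pairs, without a pseudocount. Names and gene order came from the table, from the study's supplementary tables and from RefSeq (assembly SJ5), which matched 5213 genes by locus tag. Its coordinates are not printed. Gene lists were matched by symbol and description. The members and lists were chosen with earlier results of these data known. Genes named were *pab2* and its neighbours, the 12 largest rises and falls, up to 4 per list and direction, the 10 largest gains and losses of FPKM, decay factors, references, genes the study names, the longest runs and genes at 0. Others, such as unchanged members of a family, were chosen after their values were seen. The fit was tested on simulated data. Python 3.11.15, numpy 2.4.6, pandas 2.3.3 and matplotlib 3.10.9 were used.

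Alternatives were pseudocounts of 0.1 and 5, TMM factors computed on FPKM (trimming 30% of ratios and 5% of levels), no filter, a mean of at least 5 FPKM, the 4 libraries alone, a block for the replicate number, 3-fold as the threshold, all 4 mutant to WT ratios and leaving out each library. Protein-coding genes alone and an equal FPKM sum were added after seeing the data.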

Additional observations from a re-analysis of the deposited data

How the results depend on the processing

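Counts of genes over 2-fold higher and lower in *pab2*Δ (372 and 89) moved by under 1.5 times with other pseudocounts, filters, model libraries, gene classes and all 4 ratios. A 3-fold threshold left 209 and 33, and TMM scaling gave 154 lower genes. Leaving out 1 library gave 378 to 387 higher and 92 to 104 lower genes, and 2350 to 2375 higher and 855 to 889 lower genes by limma alone. By limma alone, TMM scaling gave 1631 and 1695, and an equal FPKM sum gave 3490 higher and 560 lower genes. Replicate differences correlated at 0.0024 between WT and *pab2*Δ over the 4874 genes (-0.18 between WT and *clr4-1*, -0.14 between *pab2*Δ and *clr4-1*). With 1 difference per strain, these values cannot show whether replicates were paired. The replicate block gave 2614 and 958 by limma and 371 and 89 by the stricter rule. Of the 205 genes named by the rules given above, TMM scaling turned the sign of 9. Of these, 4 were not called as deposited (*pla1*, *rhn1*, *cbc2* and *rix7*). The other 5 were called, and turned to -0.024 (*red5*), -0.034 (*cid14*), -0.12 (*dri1*), -0.047 (*rps2801*) and -0.10 (*rps27b*). Genes chosen after their values were seen are not in this count, and among them *hsp90*, *atp1*, *atp2*, *rec7* and *mug20* turned as well. An equal sum turned *rmn1* to 0.053. The cause was not tested. Depth is unknown, 2 libraries a strain limit precision, and low values of short genes and of gene copies are the least certain.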
